A study of Mus musculus with 6 samples.

Results

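Trim28, the transcription factor Zfp57 and the 3 HP1 genes Cbx1, Cbx3 and Cbx5 belong to the machinery that keeps heterochromatin silent. So do the chromatin factors Atrx and Daxx. The levels of these genes were read from a single deposited profile of RNA from mouse embryonic stem cells. That profile names no library and may hold immunoprecipitated RNA. The genes were taken by name: a row of the table counted where its symbol, after the prefix of the gene model, equalled a listed gene. Of 8 listed genes, 7 were measured, out of 18312 gene rows, and Hells, a chromatin remodeller, was not analysed here. The study set out to find the mRNA targets of Brf1 and Brf2, the products of Zfp36l1 and Zfp36l2, which recognise AU-rich elements in the 3′ ends of mRNAs. All of its libraries came from the wild-type (wt) embryonic stem cell line E14 on the 129/Ola background, grown with serum and LIF. The labels describe 6 libraries in 3 groups of 2: total RNA, RNA from Brf1 and Brf2 immunoprecipitated complexes, and a rabbit IgG control, all from cytoplasmic extracts where an immunoprecipitation was made. The 1 table analysed here has no column named for a library, and no comparison between groups was made.

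Heterochromatin silencing in embryonic stem cells starts with DNA-binding proteins. KRAB zinc finger proteins bind retrotransposons and imprinted regions and recruit Trim28 (also called KAP1), a scaffold that brings in the histone H3 lysine 9 methyltransferase Setdb1, the NuRD deacetylase complex and HP1. HP1 proteins read methylated lysine 9 with a chromodomain and dimerise through a chromoshadow domain, while Atrx, a Snf2-type ATPase, and its partner Daxx place the histone variant H3.3 into the same chromatin.

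The sequences shown first are the AU-rich sites of the HP1 genes, because such sites are what Brf1 and Brf2 recognise. The 3′ untranslated regions were read from GENCODE M21 transcripts (GRCm38), taking the transcript nearest in length to the table's model. TATTTAT, searched on the transcribed strand with overlapping matches counted, was present in 2 of the 7 genes, Cbx3 and Cbx5, against 26.6% of 16288 genes with an annotated region. Each line gives 30 bases, 5′ to 3′, with the letters of TATTTAT in capitals, and the line for Cbx1 comes from a longer transcript that is described below.
Cbx3: ttatatatataTATTTATatatatatataa
Cbx5: tatttagactgTATTTATgtaggtgtgagt
Cbx1: atTATTTATTTATTTATTTATTTATTTATt

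The Cbx3 site began at base 22 after the stop codon, within a run of alternating T and A, and the Cbx5 site began at base 824. Length affects how often such letters occur, so each gene was read against genes whose region was within 20% of its own in length. These genes were not matched for the share of A and T. That share ran from 50.3% in the Trim28 region to 66.6% in that of Atrx. For Cbx3, whose region had 1098 bases, 26.6% of 2109 such genes held TATTTAT, and for Cbx5, with 8097 bases, 85.2% of 162 did. Atrx had no match in 2560 bases, where 47.9% of 1773 genes had one. Trim28, Daxx and Zfp57 had short regions of 173, 188 and 111 bases with no match, a length at which 4.55%, 4.97% and 3.52% of genes had one. A match is a description of letters and not a binding site.

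The core pentamer ATTTA, which is contained in TATTTAT, was present in 5 of the 7 genes, against 63.4% of all genes with a region. Cbx3 and Atrx each had 8 matches, Cbx5 had 7, Cbx1 had 2 and Trim28 had 1. Daxx and Zfp57 had none. Among genes with a region within 20% of each length, the share with ATTTA was 99.4% for Cbx5, 94.6% for Atrx and 77.1% for Cbx3. It was 49.6% for Cbx1, 21.5% for Trim28, 23.3% for Daxx and 17.6% for Zfp57. In Cbx5 all matches lay within the first 26.8% of the region, and the remaining stretch held no ATTTA. The longer motif TTATTTATT, which contains TATTTAT, was in none of the 7 regions and in 7.12% of all.

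For Cbx1 the answer depended on the transcript. The table's model had 1274 bases and the nearest transcript 1251, with a region of 461 bases and no TATTTAT. The transcript with the longest Cbx1 region, 1143 bases, held 8 overlapping matches between bases 220 and 248 (starts), of which 6 fall in the line shown above. It also held 8 matches of TTATTTATT. Its annotated coding part had 414 bases, against 555 in the nearest transcript. The ATTTA starts of the shorter region were bases 255 and 323. Starts are counted from each transcript's own stop codon, so they cannot be matched between the transcripts by number. Whether the longer region is an extended end of the same mRNA was not tested, and it is not read as one here. On the longest region per gene, 3 of the 7 genes had TATTTAT, against 29.5% of all genes. The table names no transcript for its Cbx1 model. Its 1274 bases are near the 1251 of the shorter transcript and far from the 1824 of the one with the longest region.

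**Figure D1:**
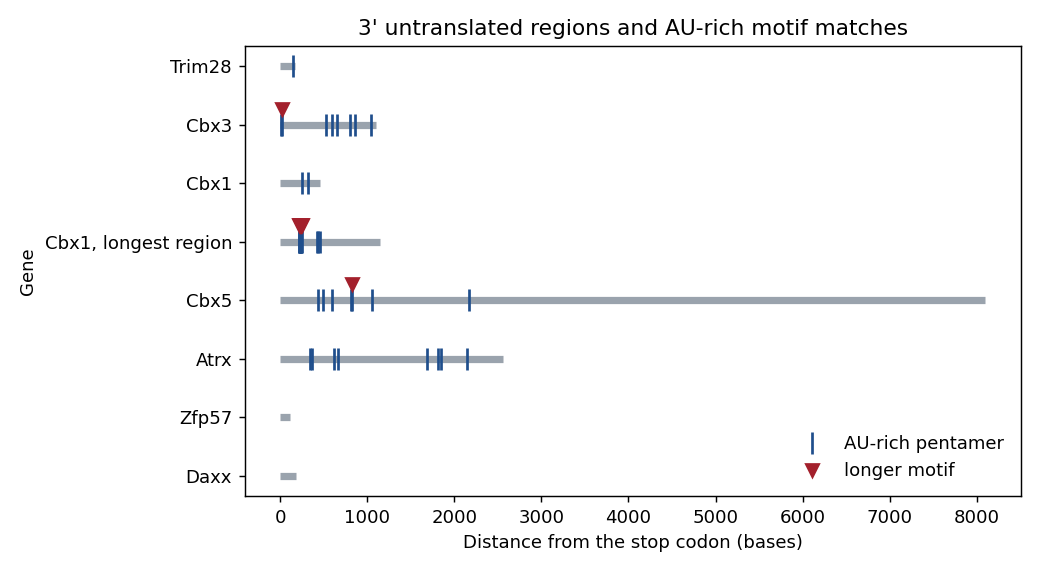
The 3′ untranslated region of each gene is drawn to scale from the stop codon (x axis, bases), with ATTTA matches as blue ticks and TATTTAT matches as red triangles. Cbx5 has by far the longest region at 8097 bases with its matches near the start, and the longer Cbx1 region holds a cluster of 8 TATTTAT matches that the shorter one lacks.

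Levels are given as FPKM, fragments scaled to effective length and to the total count, with the authors' lower and upper bounds. These bounds were 2 counting standard deviations (2 divided by the square root of the count) to within 0.1% in 14430 of 14468 rows with counts, so they cover counting error only. There are no replicates. The table holds 22625281 counts, and it may hold immunoprecipitated RNA, so a level is not a measure of binding and may not be one of expression in the cells. In a bulk profile, fewer cells of a type and less RNA per cell cannot be told apart. Markers of the labelled cell type were read beside the 56.0% of all genes that had at least 1 FPKM. Of embryonic stem cell markers, 6 of 6 reached this level (13.9 for Klf4 to 605 for Pou5f1). Of fibroblast markers, 2 of 5 did (Tagln at 125 and Thy1), or 3 on the model length. Of primitive endoderm markers, 1 of 4 measured did (Dab2 at 3.05). The fibroblast marker Tagln was above the embryonic stem cell markers Esrrb (40.6) and Klf4.

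All 7 measured genes were well above the middle of the table. Each had at least 5 FPKM, which 38.3% of all genes had (at least 1 FPKM was reached by 56.0%, or 58.2% on the model length), and 4 of them, Trim28 and the HP1 genes, had at least 50 FPKM, which 6.84% of all genes had. Their median was 89.4 FPKM, against 1.94 over all gene rows. The genes were chosen with levels of this table already known, so these shares are a description.

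Trim28 was the highest of the group. It had 32420 counts, the 52nd most of all genes, or 0.143% of all counts (Wilson 95% interval 0.142 to 0.145). Its FPKM was 250.9 (248 to 254), rank 212 of 18312. Zfp57, the KRAB zinc finger protein that protects methylated imprints, was far below its scaffold with 2434 counts and 38.4 FPKM (36.9 to 40.0). The ratio of Trim28 to Zfp57 was 6.52 in FPKM.

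The HP1 genes differed from each other in level on the deposited effective length. Cbx3, which encodes HP1 gamma, had 10722 counts and 248.9 FPKM (244 to 254), and Cbx1, which encodes HP1 beta, had 7418 counts and 204 FPKM (199.7 to 209). Cbx5, which encodes HP1 alpha, had the most counts of the 3, 16267, but the lowest FPKM, 89.4 (87.9 to 90.8), because its model is 8801 bases long against 1803 for Cbx3 and 1274 for Cbx1. Of the summed HP1 FPKM of 543, Cbx3 made up 45.9%, Cbx1 37.7% and Cbx5 16.5%. On the model length these shares were 43.7%, 42.8% and 13.6%, so Cbx3 and Cbx1 were nearly equal there. The coding part of the Cbx5 transcript was 573 bases and its 3′ untranslated region 92.0% of the whole, so a transcript with a shorter end would have a higher level for the same counts, and the table holds 1 model per symbol.

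Atrx and Daxx, which act as a pair, were not at equal levels. Atrx had 12640 counts on a model of 10242 bases and 43.3 FPKM (42.6 to 44.1). Daxx had 1896 counts and 17.3 FPKM (16.5 to 18.1), the lowest of the 7 genes, at rank 3450. Atrx was 2.50 times Daxx in FPKM and the bounds do not overlap.

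**Figure D2:**
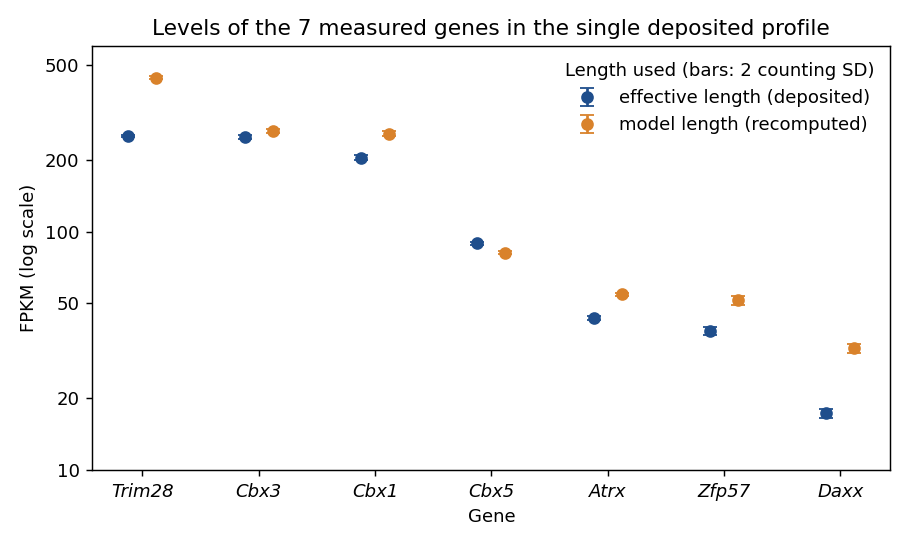
FPKM of the 7 genes (y axis, log scale) on the deposited effective length (blue) and on the model length (orange), with bars of 2 counting standard deviations. Trim28 moves from 250.9 to 442 and Daxx from 17.3 to 32.5 between the scales, while Cbx5 is the only gene that falls, from 89.4 to 81.7.

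In order of FPKM the genes ran Trim28, Cbx3, Cbx1, Cbx5, Atrx, Zfp57 and Daxx. Of the 6 neighbouring pairs in that order, 5 had bounds that do not overlap. Trim28 and Cbx3, ranks 212 and 213 among all genes, differed by a factor of 1.01 and their bounds overlap. Effective length, the length that the quantification assigned after its corrections, exceeded the model length most for Daxx (1.87 times) and Trim28 (1.76), whose transcripts had the highest GC content of the 7, 55.2% and 59.6%. It was close to the model length for Cbx3 (1.06 times, GC 37.2%) and below it for Cbx5 (0.914 times, GC 42.6%). Zfp57 stood at 1.34 (GC 51.4%), Cbx1 at 1.26 (GC 47.7%) and Atrx at 1.26 (GC 39.5%).

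On the model length the order of the 7 genes was the same, but the gaps were not. Trim28 had 442 FPKM and stood apart from Cbx3 at 263, a ratio of 1.68. Cbx3 and Cbx1 (257) now had overlapping bounds, as did Atrx (54.5) and Zfp57 (51.5). Cbx5 had 81.7 and Daxx 32.5, and Atrx was 1.68 times Daxx. The ratio of Cbx3 to Cbx1 was 1.02, against 1.22 on the effective length. The gaps between Trim28 and Cbx3, between Cbx3 and Cbx1, and between Atrx and Zfp57 therefore depend on which length is used.

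**Figure D3:**
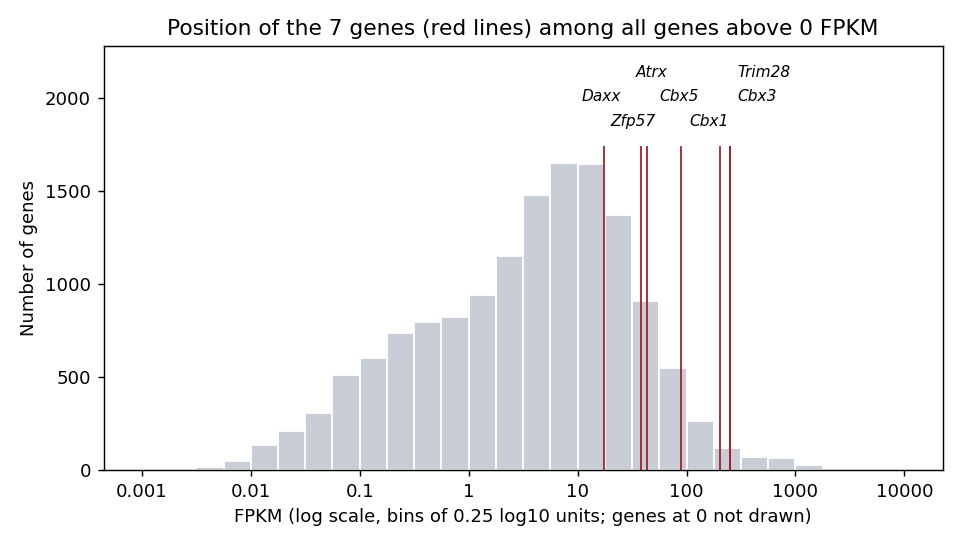
Number of genes (y axis) by FPKM (x axis, log scale) for the 14468 genes above 0 FPKM, with each of the 7 genes as a red line. Daxx, at 17.3, lies in a densely filled bin of 1648 genes, and Trim28, Cbx3 and Cbx1 lie in the sparse upper tail above 200.

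The partners of these genes were taken from 11 lists. Trim28 belongs to the TIF1 family, and its relatives were lower: Trim24, a nuclear receptor coregulator, had 33.1 FPKM, Trim33, a Smad regulator, had 18.9, and Trim66 had 0.0783 (21 counts). Trim28 was 7.58 times Trim24 and 13.3 times Trim33, and 10.4 and 21.9 times on the model length. The measured genes of a chosen KRAB zinc finger list, whose products recruit Trim28, were all below it. So were most genes, as Trim28 lay in the top 1.16% of all gene rows. Of the KRAB zinc finger list, 17 of 17 measured had at least 1 FPKM (16 on the model length), against 56.0% of all genes. Their median was 5.28, and 10 had 5 or more, against 38.3% of all genes. The list ran from 1.31 for Zfp689 to 109 for Zfp932, and Zfp57 lay above the list's median.

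The enzymes that write the mark which HP1 reads were at moderate levels. All 9 genes of the H3K9 methyltransferase list reached 5 FPKM, against 38.3% of all genes, and the list's median was 16.1. Setdb1, the enzyme recruited by Trim28, had 21.3 FPKM, so Trim28 was 11.8 times higher, and its cofactor Atf7ip had 13.3. Ehmt2 and Ehmt1, which form the G9a and GLP complex, had 31.2 and 18.0, and their zinc finger partners Wiz and Zfp644 had 8.20 and 16.1. The pericentromeric enzymes Suv39h1 and Suv39h2 had 13.1 and 17.7, and Setdb2 was lowest at 5.83. Each of the 3 HP1 genes was above all 9.

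Corepressor subunits had the highest median of the 11 lists. Of 11 measured NuRD genes all had at least 1 FPKM, against 56.0% of all genes, and 6 had at least 50, against 6.84%. The list's median was 63.0, from 2.58 for the remodeller Chd3 to 210.0 for the histone-binding subunit Rbbp7. Of the HUSH and MORC genes, which silence retroelements through the same mark, 5 of 5 measured had at least 5 FPKM, against 38.3% of all genes. Their median was 29.8, from 20.5 for Morc2a to 62.1 for the chromodomain protein Mphosph8.

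The chromodomain genes split by family. The 4 polycomb CBX genes reported here, chromodomain paralogs of the HP1 genes, had a median of 9.21 FPKM. Of the 4, 3 had at least 1 FPKM, against 56.0% of all genes. Cbx7, the main polycomb paralog of embryonic stem cells, had 43.1, Cbx6 had 11.8, Cbx2 had 6.59 and Cbx8 had 0.459 (26 counts). None of them reached Cbx5, the lowest HP1 gene, on either length. The summed FPKM of the HP1 genes was 8.75 times that of these polycomb CBX genes, and 6.67 times on the model length. Of HP1 partners, 3 were measured: the nuclear envelope receptor Lbr at 94.6, Adnp at 32.6 and Pogz at 9.93.

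Around Daxx and Atrx, all 10 measured genes of the histone H3 chaperone and H3.3 list reached 5 FPKM, against 38.3% of all genes. The list's median was 22.9. The H3.3 gene H3f3a was highest at 614 and Cabin1, of the HIRA complex, lowest at 6.10. Of 10 PML body and SUMO genes, which include Daxx's binding partners, 9 had at least 1 FPKM, against 56.0% of all genes. The median of that list was 26.1, from Sumo2 at 690.0 down to Sp100 at 0.143. The 14 measured Snf2 relatives of Atrx had a median of 11.8, from 2.58 for Chd3 to 106 for Smarca5, and Atrx lay above that median.

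The DNA methylation list stands for the partners of Hells, which itself was not analysed. All 7 measured genes of this list reached 5 FPKM, against 38.3% of all genes, and the list's median was 43.1. The de novo methyltransferase Dnmt3b had 106 FPKM and Dnmt3a had 18.3, the cofactor Dnmt3l had 73.4 and the maintenance enzyme Dnmt1 had 43.1. Cdca7, which activates Hells, had 62.3, its paralog Cdca7l had 12.8 and Zbtb24 had 5.01.

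**Figure D4:**
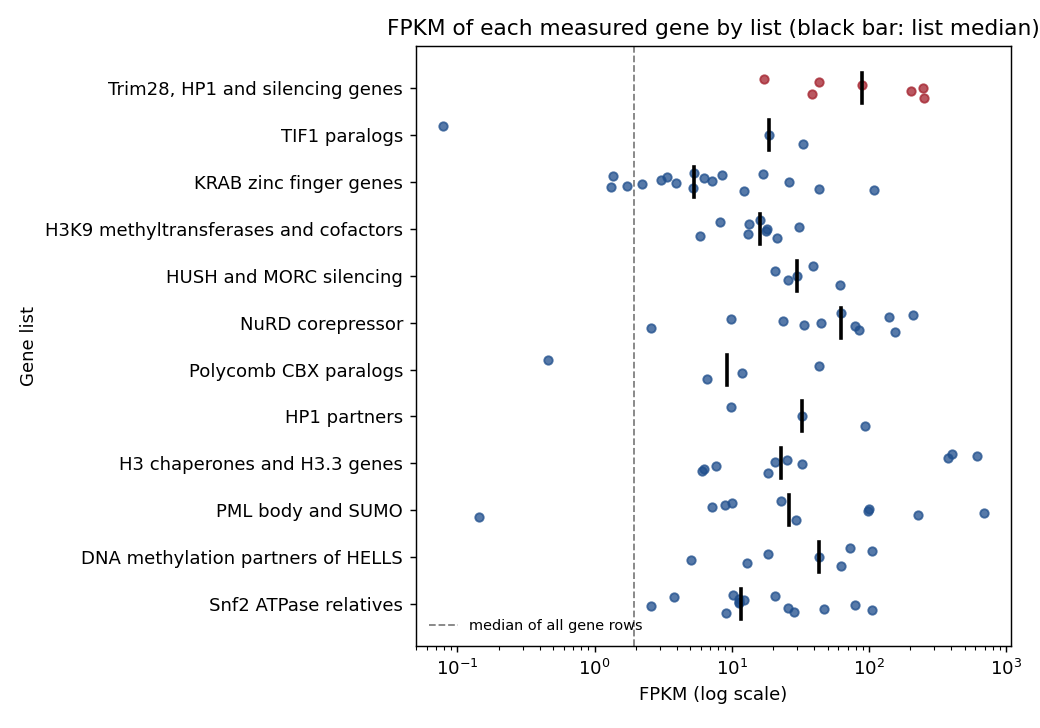
FPKM (x axis, log scale) of every measured gene, 1 row per list, with the list median as a black bar and the median of all gene rows, 1.94, as a dashed line. The 7 silencing genes (red) have a median of 89.4, above the medians of the 11 other lists on this scale, but on the model length their median of 81.7 is below those of NuRD (95.0) and the DNA methylation list (84.3).

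The positions of the genes add a feature that the selection did not use. Cbx3 and Cbx5 each start head to head with a gene for an abundant RNA-binding protein of the hnRNP A/B family. Distances are between the outermost RefSeq starts of the genes (GRCm38.p6). On chromosome 6, 722 bases separate Cbx3 from Hnrnpa2b1. On chromosome 15, 545 bases separate Cbx5 from Hnrnpa1. Cbx3 and Cbx5 have 2 RefSeq starts each and Daxx has 3, and inner starts were not used. Hnrnpa2b1 had 484 FPKM (479.8 to 488) and Hnrnpa1 had 638 (632 to 643), both above their HP1 neighbour. Daxx starts 267 bases from BC051226, a long noncoding RNA. With a limit of 1000 bases, 3 of the 7 genes had such a neighbour, against 10.5% of 27025 genes, and 2 had a protein-coding one, against 7.43%. Those 27025 genes are all that have a RefSeq start, noncoding genes and genes without a level here included. They were not matched to the 7 genes in level or CG content. Within 500 bases only Daxx with its noncoding neighbour was left, 1 of the 7 genes against 9.35% of all, and both HP1 pairs fell outside. Cbx1, the third HP1 gene, had none. The neighbours were chosen with their levels in view.

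The start regions of the paired HP1 genes are shown because each faces its hnRNP neighbour. They run from 250 bases before to 50 bases after the start, as RefSeq gives them on GRCm38.p6, at chr6:51470366-51470665 (plus strand) for Cbx3 and at chr15:103239803-103240102 (minus strand) for Cbx5, 5′ to 3′ on the gene's strand, with CG dinucleotides in capitals.
Cbx3: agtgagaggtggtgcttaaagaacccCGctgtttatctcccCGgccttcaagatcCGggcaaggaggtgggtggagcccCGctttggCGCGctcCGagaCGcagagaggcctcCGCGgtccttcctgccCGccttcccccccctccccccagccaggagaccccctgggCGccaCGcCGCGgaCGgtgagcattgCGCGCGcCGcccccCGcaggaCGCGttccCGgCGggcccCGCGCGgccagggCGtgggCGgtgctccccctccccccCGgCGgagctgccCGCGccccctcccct
Cbx5: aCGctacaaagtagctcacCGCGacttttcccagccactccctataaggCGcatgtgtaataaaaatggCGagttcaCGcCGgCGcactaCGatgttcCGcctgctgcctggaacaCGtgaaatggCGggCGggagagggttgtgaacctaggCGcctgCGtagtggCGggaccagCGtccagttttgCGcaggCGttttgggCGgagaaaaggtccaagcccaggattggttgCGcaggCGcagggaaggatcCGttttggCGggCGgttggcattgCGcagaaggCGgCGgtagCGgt

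CG counts in these windows varied among the 7 genes. The Cbx3 window had 34 and the Cbx5 window 29, with 33 for Daxx, 23 for Trim28 and 22 for Cbx1. All were above the upper quartile of 20 over the windows of 27025 genes, which include noncoding genes and genes without a level here. Atrx, on the X chromosome, had 11, and Zfp57 had 6, below the median of 7. CG was counted on 1 strand, which gives the same number on the other, and the outermost start of each gene was used.

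Exons of the 7 genes overlapped no exon of another annotated gene in GENCODE M21 (GRCm38). The overlap was not examined on mm9, the build named for the table. Cbx3 has 8 annotated pseudogenes that carry its name. Copies under other names were not counted for any of the 7 genes. The deposited total and unique counts are equal in all rows, so reads shared with any copy cannot be seen. The Cbx3 level is uncertain to that extent, and the other levels may be too.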

How the data were processed

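The labels describe RNA from E14 cells, 6 libraries in 3 groups of 2. The mm9 build, eXpress 1.1.1, Bowtie 1.1.2 and CASAVA 1.8.2 are named per the submitters' processing notes, and what each did is not given in the sources used here. For all libraries the authors deposited 1 table with total and unique counts, estimated counts and FPKM with bounds, per the file headers. The row without a gene name equals the sum of the gene rows, 22625281 counts, and was left out. No column of the table names a library, so the planned group comparisons were not made.

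FPKM was recomputed from the counts with the model length as an alternative. Of the table's symbols, 92.1% matched GENCODE M21 by name. Regions of at least 50 bases were used, and the transcript of each of the 7 genes was within 4.66% of its model length. Named genes are the 7 genes, the highest and lowest of each list, and all genes of the TIF1, CBX, H3K9 and DNA methylation lists; others were chosen with their values in view. The value of 1 list gene is left out of the text and of its list. The members and lists were chosen with earlier results of these data known. The level and motif functions were tested on simulated data. Python 3.11.15, numpy 2.4.6, pandas 2.3.3 and matplotlib 3.10.9 were used.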

Additional observations from a re-analysis of the deposited data

How the results depend on the processing

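No paired analysis was possible because no column names a library, group or replicate, and for the same reason no library could be left out. At 50 FPKM or more 4 of the 7 genes remained. At 5 FPKM or more, 10 KRAB zinc finger genes, 1 fibroblast marker and 0 primitive endoderm markers were left. With ATTTA 5 genes had a match and with TTATTTATT 0 did. With a limit of 500 bases, a setting chosen after seeing the data, 1 gene, Daxx, had a head-to-head neighbour, against 9.35% of all genes, and both HP1 pairs dropped out. Of 42 alternative list counts, 39 were within 1.5 times the reported one. These include the alternatives that also asked for at least 10 counts, which could hardly move a count. Over all genes, 10253 of the 10257 with at least 1 FPKM met that limit too. On the model length all 7 levels moved beyond their bounds, 6 up and 1 down. The cause was not tested. Each of the 7 genes had 1896 counts or more.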

Other observations

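Levels of some KRAB zinc finger genes moved with the length used for FPKM. On model rather than effective length, Zfp932 went from 109 to 51.4 FPKM and Zfp708 from 5.24 to 2.11. Zfp568, a repressor needed in the early embryo, had 43.3 and 44.3. Zfp809, which silences murine leukaemia virus proviruses, had 12.4 and 13.6. Zfp445, which acts at imprinted regions beside Zfp57, had 26.1 and 25.4, against 38.4 and 51.5 for Zfp57.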
